A study of Mus musculus with 8 samples.

Results

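Transcripts of 7 chemokine receptors were followed in mouse natural killer (NK) cells, innate lymphocytes that kill infected and transformed cells. The members are the listed receptor genes Cxcr3, Cxcr4, Cxcr6, Ccr1, Ccr2, Ccr7 and Ccr8, 7 of 22180 genes that a transcript cluster of the array names alone. Where a gene has several clusters the one with the highest mean over the 8 arrays stands for it, and each of the 7 receptors had 1. RNA was hybridised to 8 Affymetrix Mouse Gene 2.0 ST arrays, 2 biological replicates in each of 4 groups. The cells came from mouse bone marrow depleted of T cells by CD90 selection. Day 0 cells are labelled naïve and were freshly isolated. Day 4 cells had 4 days with 1000 IU/mL of interleukin 2 (IL-2), a cytokine that activates NK cells. Day 9 + KU55933 cells had 9 days with IL-2, renewed on day 4, and from day 4 also 7.5 µM KU55933, an inhibitor of the DNA damage kinase ATM. Day 9 cells had the same 9 days with IL-2 and no inhibitor. The protocol mentions a vehicle, but no label shows if these day 9 cells received it. Activated cells were collected as adherent cells, whereas day 0 cells were taken fresh, so days in IL-2 and the way of collecting cannot be told apart in any comparison with day 0. A source label of the day 0 arrays also reads IL-2 activated, against their day of activation of 0. The sources used here give no strain, sex, age or pooling of animals, and p-values measure only the spread between these samples.

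Chemokine receptors sit in the plasma membrane and couple to inhibitory G proteins, so that a cell moves up a gradient of the matching chemokine. CXCR4 binds CXCL12 and keeps lymphocytes and progenitors in the bone marrow. CCR7 binds CCL19 and CCL21 and leads cells into lymph nodes. CXCR3 binds the interferon-induced chemokines CXCL9 and CXCL10, CCR2 binds CCL2 and CCL7, CCR1 binds CCL3, CCL5 and CCL9 among others, CXCR6 binds CXCL16, and CCR8 binds CCL1. In NK cells, CXCR4 is known for holding immature cells in the marrow, CXCR3 and CCR2 for entry into inflamed tissue, and CXCR6 for cells that stay in the liver.

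The receptors fell into separate patterns. Cxcr4, Ccr7 and Cxcr3 were lower at day 4, at day 9 + KU55933 and at day 9 than at day 0, Cxcr4 by 13.4-fold at day 4 and 26.8-fold at day 9. Ccr2 and Cxcr6 were higher than at day 0 in the same 3 groups, Ccr2 by 3.16-fold at day 4 and Cxcr6 by 2.45-fold. Ccr1 had a call only in day 9 against day 4, and that call was lost under most other settings. Ccr8 lay below the array median on every array and was not tested. Between day 9 + KU55933 and day 9 Ccr7 was the 1 receptor called, 1.78-fold higher with the inhibitor, and the call was lost in 10 of 20 alternatives (adjusted p up to 0.256 by limma). Cxcr4, 1.68-fold higher there, was not called, but was in 3 alternatives.

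The promoters of a pair of receptors that were lower than at day 0 (Cxcr4, Cxcr3) and of a pair that were higher (Cxcr6, Ccr2) are shown so that both patterns can be set beside their DNA. The window runs from 250 bases before to 50 after the RefSeq start, 5′ to 3′ on the gene's strand, build GRCm38.p6. RefSeq's promoter table held 6 of the 7 members, all but Ccr7. Capitals mark matches on either strand to 5 motifs. The promoter element called the TATA box was searched as TATAAA, while the letters taken for an Sp1-type box were GGGCGG, named the GC box here. The AP-1 site was searched as TGANTCA with N as any base. Sites of T-box factors such as T-bet were searched as TCACAC, and those of RUNX factors as TGTGGT. Cxcr4 is at chr1:128592250-128592549 on the minus strand, Cxcr3 at chrX:101734098-101734397 on the minus strand, Cxcr6 at chr9:123806227-123806526 on the plus strand and Ccr2 at chr9:124101933-124102232 on the plus strand.
Cxcr4: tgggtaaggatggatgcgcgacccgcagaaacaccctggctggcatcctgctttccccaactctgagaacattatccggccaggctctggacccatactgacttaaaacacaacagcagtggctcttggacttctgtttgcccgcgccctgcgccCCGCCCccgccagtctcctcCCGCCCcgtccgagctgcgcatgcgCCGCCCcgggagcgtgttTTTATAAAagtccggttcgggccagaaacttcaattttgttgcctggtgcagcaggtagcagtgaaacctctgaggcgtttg
Cxcr3: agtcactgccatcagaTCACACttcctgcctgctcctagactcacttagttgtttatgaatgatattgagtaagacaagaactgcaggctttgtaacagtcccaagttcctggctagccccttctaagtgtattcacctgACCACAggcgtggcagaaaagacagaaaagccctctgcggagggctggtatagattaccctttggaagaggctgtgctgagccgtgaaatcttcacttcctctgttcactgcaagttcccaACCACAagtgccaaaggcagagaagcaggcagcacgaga
Cxcr6: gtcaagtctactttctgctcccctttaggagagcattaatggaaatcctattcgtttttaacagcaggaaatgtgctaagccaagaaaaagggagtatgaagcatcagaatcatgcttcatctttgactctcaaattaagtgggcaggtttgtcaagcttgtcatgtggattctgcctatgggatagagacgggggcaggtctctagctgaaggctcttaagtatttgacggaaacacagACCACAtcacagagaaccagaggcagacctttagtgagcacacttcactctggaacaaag
Ccr2: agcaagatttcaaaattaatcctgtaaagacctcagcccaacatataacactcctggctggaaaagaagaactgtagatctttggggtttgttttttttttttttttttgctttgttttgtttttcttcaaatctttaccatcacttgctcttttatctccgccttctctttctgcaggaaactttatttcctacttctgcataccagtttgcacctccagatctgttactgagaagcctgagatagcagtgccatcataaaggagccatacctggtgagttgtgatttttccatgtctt
The Cxcr4 window held 3 GC boxes and 2 overlapping TATA matches, one on each strand, and a GC content of 59.3%, against a median of 52.7% over 32851 promoters of the same length. The Ccr2 window had a GC content of 38.0% and none of the 5 motifs. Cxcr3 held 1 T-box site and 2 RUNX matches, and Cxcr6 held 1 RUNX match. Over all 32851 promoters 13.6% held the TATA letters, 35.7% the GC box, 7.8% the AP-1 letters, 14.5% the T-box site and 16.8% the RUNX letters. AP-1 letters were in none of the 6 windows. A match is a description of letters and not of binding.

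Values are log2 signals after robust multi-array averaging (RMA), and a difference of 1 is a doubling. The median of all clusters lay between 3.66 and 3.91 on the 8 arrays. A gene was tested where it reached the array median on at least 2 arrays, which 13998 genes and 6 of the 7 receptors did. Differences were tested with limma over all 8 arrays and called at an adjusted p under 0.05 (Benjamini-Hochberg over all genes tested). Replicates of a group correlated at 0.976 to 0.994 over tested genes, and day 0 arrays stood apart from all others, at 0.807 to 0.833. In RNA from many cells, fewer cells of a type and less RNA per cell cannot be told apart.

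NK markers were seen in every group. All 14 NK markers, among them Ncr1, Prf1 and Eomes, lay above the array median on all 8 arrays, and their summed log2 signal was 136.4 to 138.1 at day 0, 141.4 to 142.8 at day 4, 141.8 to 142.3 at day 9 + KU55933 and 142.2 to 142.3 at day 9. At day 9 against day 0, 8 of the 14 were higher and 4 lower, where 36.0% of all genes were higher and 22.0% lower. The lower ones were Itga2 (-2.83), Tbx21 (-1.11), Klrk1 (-0.47) and Ncr1 (-0.39), and the largest rises were those of Gzmb (2.90) and Prf1 (2.31). Markers of other cells were present too. The 9 measured B cell markers summed to 59.8 to 61.5 at day 0, 44.1 to 48.5 at day 4, 32.5 to 32.6 at day 9 + KU55933 and 32.8 to 32.9 at day 9, and 0 to 1 of them lay below the array median at day 0, against 4 to 6 in the day 9 groups. The 11 dendritic cell markers summed to 81.1 to 82.6, 68.6 to 70.5, 60.1 to 61.1 and 61.2 to 62.0 in the same order, with 2 to 3 below the median on each array. Neutrophil markers were highest at day 4, where 12 of them summed to 64.6 to 64.8, against 45.7 to 49.3 at day 0. The 12 T cell markers summed to 71.1 to 71.6 at day 0, 64.5 to 64.8 at day 4, 67.2 to 67.4 at day 9 + KU55933 and 64.5 to 65.9 at day 9. Of 11 tested, 7 were lower at day 9 than at day 0, where 22.0% of all genes were lower. Cd4 and Themis, among the 7, were tested only because their day 0 arrays reached the array median. Cd3e (0.90), Cd3g (1.56) and Cd28 (1.57) were higher. Markers of other innate lymphoid cells and basophils, 10 in all, had summed log2 signals between 40.6 and 44.8, with 5 to 6 below the median on each array. Within that list the basophil protease gene Mcpt8 had 5.43 and 6.22 at day 0, 8.90 and 8.96 at day 4, 8.28 and 8.32 at day 9 + KU55933, and 9.29 and 9.32 at day 9, whereas Ms4a2 averaged 2.91 at day 9 and 3.94 at day 0. The 18 immediate-early genes, a sign of handling or recent stimulation, summed to 168.9 to 171.2 at day 0 and to 126.7 to 133.0 on all other arrays. These lists differ between day 0 and later arrays in the comparisons that follow, and their part in the receptor differences was not tested.

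**Figure D1:**
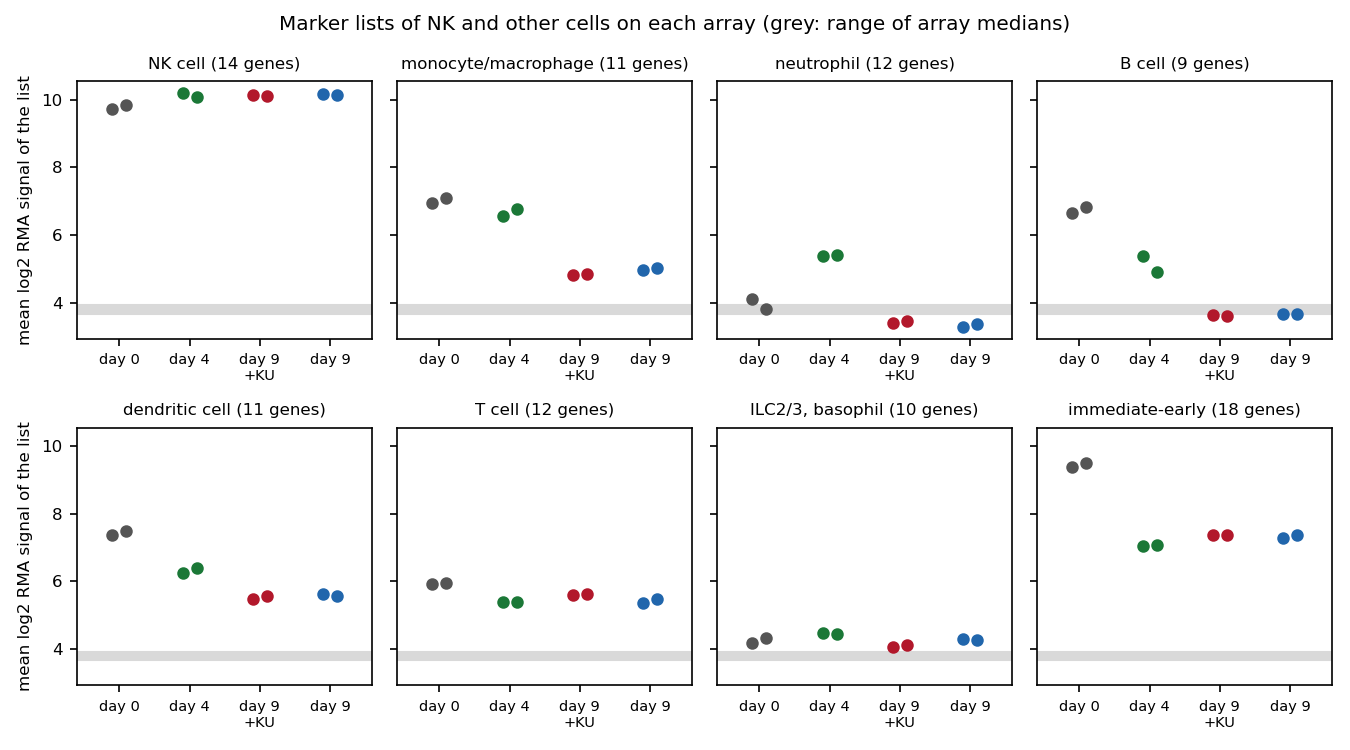
Mean log2 RMA signal of each marker list (vertical axis) on every array, by group (horizontal axis); points are arrays and the grey band is the range of array medians. The NK list stays near 10 in all groups, while the B cell and dendritic cell lists are highest on the day 0 arrays and the neutrophil list on the day 4 arrays.

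**Figure D2:**
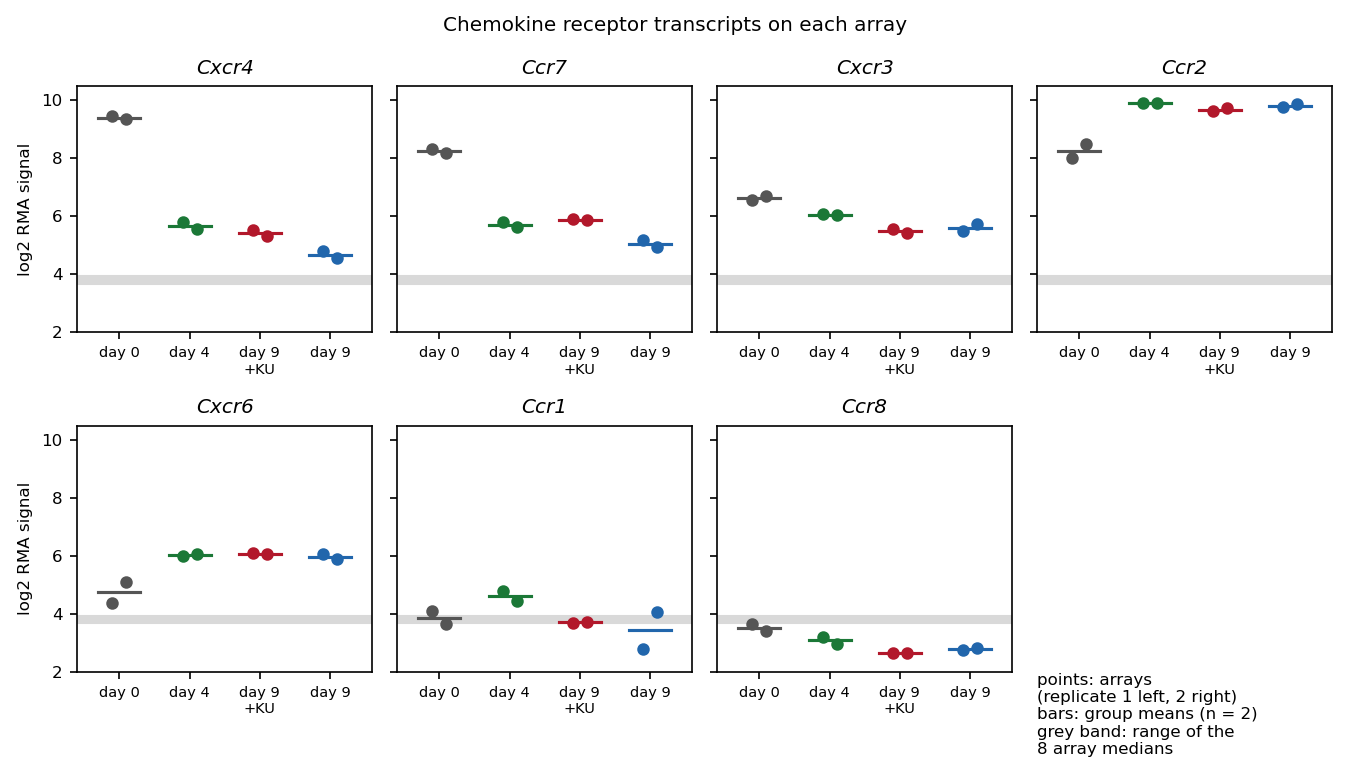
Log2 RMA signal (vertical axis) of the 7 receptors on each array by group (horizontal axis); points are arrays, bars are means of 2 arrays and the grey band is the range of array medians. Cxcr4 and Ccr7 are high only on the day 0 arrays, Ccr2 is at or above 8 on every array, and Ccr8 lies under the band.

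Cxcr4, the receptor for CXCL12 on mouse chromosome 1, had the largest differences of the 6 tested receptors from day 0. Its log2 signal was 9.47 and 9.35 at day 0, 5.79 and 5.55 at day 4, 5.51 and 5.32 at day 9 + KU55933, and 4.78 and 4.55 at day 9. The day 0 arrays were highest and the day 9 arrays lowest, with no overlap between any pair of groups. It was lower by 13.4-fold at day 4 than at day 0 (log2 difference -3.74 ± 0.14 SE, adjusted p = 1.24e-06 by limma), the 77th largest difference among all genes tested. Day 9 was 26.8-fold below day 0 (-4.75 ± 0.14, adjusted p = 4.84e-07 by limma) and day 9 + KU55933 was 15.9-fold below it (-3.99, adjusted p = 8.63e-07 by limma). Day 9 also lay 2-fold under day 4 (-1.0, adjusted p = 0.00165 by limma). Day 9 + KU55933 did not differ from day 4 past the threshold (-0.25, 95% interval -0.58 to 0.08).

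Ccr7, which brings lymphocytes and mature dendritic cells to lymph nodes, followed Cxcr4. Its log2 signal was 8.33 and 8.19 at day 0, 5.78 and 5.62 at day 4, 5.89 and 5.86 at day 9 + KU55933, and 5.16 and 4.92 at day 9. The day 0 arrays were the highest and the day 9 arrays the lowest, and the arrays of day 4 and day 9 + KU55933 lay close to each other without overlap. It was 5.90-fold lower at day 4 than at day 0 (-2.56 ± 0.13 SE, adjusted p = 2.94e-06 by limma), 5.22-fold lower at day 9 + KU55933 (-2.38) and 9.30-fold lower at day 9 (-3.22). Day 9 lay 1.58-fold below day 4 (-0.66, adjusted p = 0.00696 by limma), and without day 4 replicate 1 or day 9 replicate 2 that call was lost (adjusted p = 0.0643 and 0.0509 by limma). Day 9 + KU55933 against day 4 gave 0.18 with an interval of -0.12 to 0.48.

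Cxcr3, the receptor for CXCL9 and CXCL10 that marks effector lymphocytes, lies on chromosome X and fell less. Its log2 signal was 6.56 and 6.70 at day 0, 6.06 and 6.03 at day 4, 5.56 and 5.42 at day 9 + KU55933, and 5.47 and 5.73 at day 9. Day 0 arrays were highest, day 4 arrays came next, and the arrays of the last 2 groups overlapped. It was 1.5-fold lower at day 4 than at day 0 (-0.58 ± 0.13 SE, adjusted p = 0.00567 by limma), 2.21-fold lower at day 9 + KU55933 (-1.14, adjusted p = 0.000157 by limma) and 2.04-fold lower at day 9 (-1.03, adjusted p = 0.00028 by limma). It was also below day 4 in both day 9 groups, by 1.47-fold with KU55933 (-0.56, adjusted p = 0.017 by limma) and 1.37-fold without (-0.45, adjusted p = 0.0383 by limma). The call with KU55933 was lost without either day 4 array or either KU55933 array (adjusted p 0.0545 to 0.11 by limma). The call without it was lost when day 4 replicate 1 or 2, day 9 replicate 1 or either KU55933 array was left out, with adjusted p between 0.0609 and 0.228.

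Ccr2, the receptor that draws monocytes and activated NK cells toward CCL2 and CCL7, was higher after IL-2. Its log2 signal was 8.02 and 8.48 at day 0, 9.90 and 9.92 at day 4, 9.63 and 9.74 at day 9 + KU55933, and 9.76 and 9.88 at day 9. All 6 later arrays lay above both day 0 arrays. It was 3.16-fold higher at day 4 than at day 0 (1.66 ± 0.16 SE, adjusted p = 5.36e-05 by limma), 2.70-fold higher at day 9 + KU55933 (1.43, adjusted p = 0.000122 by limma) and 2.97-fold higher at day 9 (1.57, adjusted p = 7.91e-05 by limma). The 3 later groups were not told apart: the interval of day 9 against day 4 was -0.46 to 0.28, of day 9 + KU55933 against day 4 -0.59 to 0.14, and of day 9 + KU55933 against day 9 -0.50 to 0.23. Ccr2 is also a monocyte gene, and the 11 monocyte and macrophage markers moved in both directions. At day 4 against day 0, 3 of them rose, Ly6c2 (1.40), Fcgr1 (1.2) and Cd14 (0.72), and 5 fell, Cd300e (-3.71), Csf1r (-1.52), F13a1 (-1.15), Lyz2 (-1.14) and Cd68 (-0.42). Of all genes 37.5% were higher and 22.4% lower in that comparison. The list had summed log2 signals of 76.5 to 78.1 at day 0, 72.2 to 74.5 at day 4, 52.9 to 53.4 at day 9 + KU55933 and 54.5 to 55.1 at day 9. On each day 9 array 3 to 4 of those 11 lay below the array median. At day 9 against day 0, 8 of the 11 were lower and 2, Ly6c2 and Cd14, were higher, with Ly6c2 at 10.31 and 8.15. Of all genes 22.0% were lower and 36.0% higher there. The part of the monocyte and macrophage markers in the Ccr2 signal was not tested.

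Cxcr6, the receptor for CXCL16 on liver-resident and memory-like NK cells, was the other gene that rose. Its log2 signal was 4.37 and 5.10 at day 0, 5.99 and 6.06 at day 4, 6.09 and 6.06 at day 9 + KU55933, and 6.05 and 5.89 at day 9. Every later array was above both day 0 arrays, which differed from each other by more than any other replicate pair of this gene. It was 2.45-fold higher at day 4 than at day 0 (1.29 ± 0.22 SE, adjusted p = 0.00117 by limma), 2.53-fold higher at day 9 + KU55933 (1.34, adjusted p = 0.000981 by limma) and 2.36-fold higher at day 9 (1.24, adjusted p = 0.00154 by limma). Leaving out one day 0 array at a time moved the day 4 difference between 0.93 and 1.66, and the call stayed. In the RefSeq order Cxcr6 lies inside the gene Fyco1, and Fyco1 moved in the opposite direction: its log2 signal was 6.83 and 6.95 at day 0, 5.71 and 5.57 at day 4, 6.28 and 6.16 at day 9 + KU55933, and 5.85 and 6.01 at day 9. In the authors' deposited table, which gives a p-value over all groups, Cxcr6 had a false discovery rate p-value of 0.0664, whereas Cxcr4 had 0.00109, Ccr7 0.00137, Ccr2 0.0123 and Cxcr3 0.0141.

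Ccr1, a receptor of neutrophils and monocytes for CCL3, CCL5 and CCL9, stayed close to the array median. Its log2 signal was 4.08 and 3.64 at day 0, 4.78 and 4.44 at day 4, 3.68 and 3.72 at day 9 + KU55933, and 2.79 and 4.07 at day 9. The day 4 arrays were the highest, and the 2 day 9 arrays were farther apart than any other replicate pair of the gene. Day 9 was 2.27-fold below day 4 (-1.18 ± 0.37 SE, adjusted p = 0.0485 by limma), a call that was lost in all but 1 of the fits that left an array out. Without day 9 replicate 1 the difference was -0.54 (adjusted p = 0.171 by limma), and without day 9 replicate 2 it was -1.82 (adjusted p = 0.00222 by limma). Against day 0, the differences were 0.75 at day 4, -0.16 at day 9 + KU55933 and -0.43 at day 9, none called, and the last was 0.21 without day 9 replicate 1 and -1.07 (adjusted p = 0.00717 by limma) without replicate 2. The neutrophil markers beside it were highest at day 4 too. Of 11 tested, 9 had risen over day 0 and 0 had fallen, where 37.5% of all genes were higher and 22.4% lower. Camp, Ngp and Retnlg were tested only because their day 4 arrays were high, so the count is a description only. The part of the neutrophil markers in the Ccr1 signal was not tested.

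Ccr8, the receptor for CCL1 on regulatory T cells and skin-homing lymphocytes, had log2 signals of 3.64 and 3.39 at day 0, 3.20 and 2.96 at day 4, 2.63 and 2.63 at day 9 + KU55933, and 2.74 and 2.81 at day 9. All 8 lay below their array medians, so no fold is given. With no filter on dim genes, limma gave adjusted p = 0.0449 for day 4, 0.00155 for day 9 + KU55933 and 0.00411 for day 9, each against day 0 and each downward, and the authors' deposited table lists it with a false discovery rate p-value of 0.0348. These differences are between levels near the floor of the arrays.

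Set against the whole array, the number of receptors called was read beside the background. For day 4 against day 0, 5 of 6 tested receptors were called, 2 higher and 3 lower, where 59.9% of all genes were called, 37.5% higher and 22.4% lower. For day 9 + KU55933 against day 0 it was again 5 of 6, 2 higher and 3 lower, where 59.1% of genes were called, 37.3% higher and 21.9% lower. For day 9 against day 0 it was 5 of 6, 2 higher and 3 lower, where 58.0% were called, 36.0% higher and 22.0% lower. Past 2-fold were 4 of 6 receptors at day 4, 5 of 6 at day 9 + KU55933 and 5 of 6 at day 9, with 28.9%, 28.3% and 27.5% of all genes. So many genes differed from day 0 that these counts say little about the receptors as a group. The median difference of the tested receptors was 0.08 at day 4, -0.65 at day 9 + KU55933 and -0.73 at day 9, and over all genes tested it was 0.08, 0.11 and 0.09. Of all genes called, 62.6% were higher at day 4 than at day 0, but 40.4% after each array was centred on its median, a step that moved differences by -0.345. The same step took the share higher to 43.3% for day 9 + KU55933 (63.0% as deposited) and to 46.8% for day 9 (62.0%), with shifts of -0.298 and -0.228. No call of the 5 receptors against day 0 changed with the centring. The 3 comparisons share the day 0 arrays and are not independent.

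**Figure D3:**
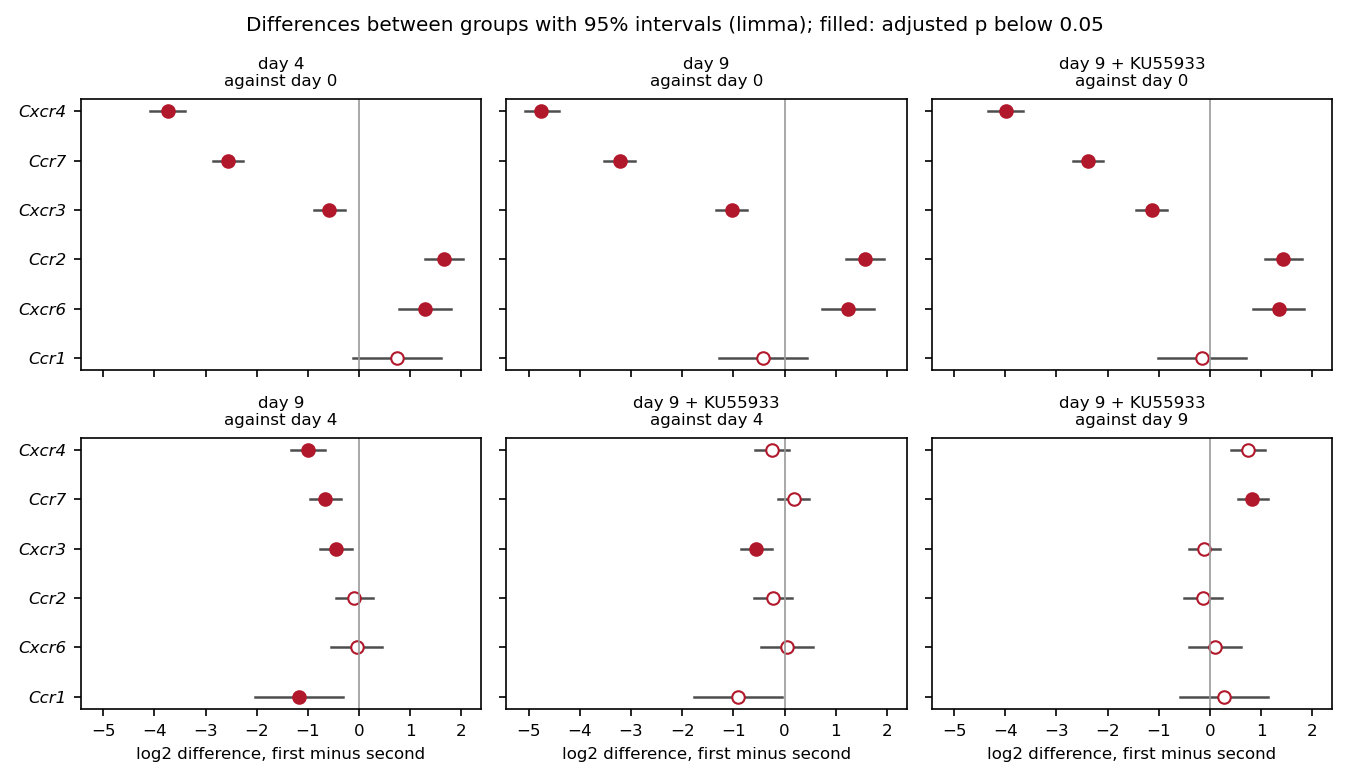
Log2 differences (horizontal axis) of the 6 tested receptors in 6 comparisons, the first-named group minus the second, with 95% intervals from limma; filled points had an adjusted p below 0.05. Cxcr4 and Ccr7 lie far left of 0 in the 3 comparisons with day 0, and in day 9 + KU55933 against day 9 both lie to its right with Ccr7 alone filled.

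The longer culture was read in day 9 against day 4, groups that also differ by the renewal of IL-2 on day 4. There 4 of 6 receptors were lower (Cxcr4, Ccr7, Cxcr3 and Ccr1) and 0 higher, where 27.8% of all genes were called, 12.2% higher and 15.6% lower. Past 2-fold were 2 of 6, where 8.86% of genes were. After centring, which moved differences by 0.117, 2 of 6 were called, Cxcr4 and Ccr7. Of all genes called, 43.9% were higher as deposited and 58.9% after centring. For day 9 + KU55933 against day 4, 1 of 6 was called (Cxcr3, lower), where 26.0% of genes were called, 12.3% higher and 13.7% lower. Cxcr4 kept its call in day 9 against day 4 in all alternatives with a test, with differences between -1.12 and -0.88. Marker lists differed between these 2 groups too. Of 8 tested B cell markers 7 were lower at day 9 and 0 higher, and of 11 monocyte and macrophage markers 7 were lower and 2 higher. Dendritic cell (2 higher, 3 lower), T cell (3 higher, 2 lower) and NK markers (3 higher, 2 lower) moved in both directions. Their part in the receptor differences was not tested.

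Few genes differed between day 9 + KU55933 and day 9. Of all genes 0.986% were called, 138 of 13998, with 0.750% higher and 0.236% lower, and of the receptors 1 of 6 was called, higher. That was Ccr7: 5.89 and 5.86 with KU55933, against 5.16 and 4.92 without, 1.78-fold higher (0.83 ± 0.13 SE, 95% interval 0.54 to 1.13, adjusted p = 0.0356 by limma). Both arrays with KU55933 were above both without. The call was lost without any one of the day 4, day 9 or KU55933 arrays (adjusted p 0.0932 to 0.256 by limma), after centring (0.76, adjusted p = 0.0696 by limma), after quantile normalization (0.75) and with no dim filter. Cxcr4 was not called: 5.51 and 5.32 with KU55933, against 4.78 and 4.55 without (0.75, 95% interval 0.42 to 1.08, adjusted p = 0.0668 by limma). Cxcr3 (-0.11, interval -0.41 to 0.20), Ccr2 (-0.13), Cxcr6 (0.10) and Ccr1 (0.27) were not called either, which does not show that they were the same. Of called genes, 76.1% were higher with KU55933, and 58.7% after centring, where 92 were called.

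Among marker lists beside the KU55933 comparison, 0 of 14 NK markers, 0 of 8 tested B cell markers and 0 of 11 tested T cell markers were called by limma, with 0, 1 and 4 at an unadjusted p under 0.05. Of all genes 0.986% were called there. Of 9 tested dendritic cell markers 2 were higher, Bst2 (0.67, adjusted p = 0.0388) and H2-Ab1 (0.96, adjusted p = 0.0356), and 1 was lower, Itgax (-1.02, adjusted p = 0.0172), all by limma, but after centring 0 were called higher. Of 11 monocyte and macrophage markers 1 was lower, Lyz2 (-0.68, adjusted p = 0.0459 by limma). Of 11 tested neutrophil markers 1 was higher, Ly6g (1.77, adjusted p = 0.0166 by limma). Of 18 immediate-early genes 2 were higher by limma, Jun (0.62, adjusted p = 0.0489) and Dusp1 (1.03, adjusted p = 0.0317), and after centring 1 was called higher and 1 lower. These calls were not tested with an array left out. The 12 T cell markers summed to 67.2 to 67.4 with KU55933 and 64.5 to 65.9 without. Dendritic cells and T cells express Ccr7, and the part of any of these lists in its difference was not tested.

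Of 18 other chemokine receptors listed, 17 had a cluster of their own and 11 were tested. Ccr3, Ccr6 and Cmklr1 were tested only because their day 0 arrays reached the array median, and Ccr1l1 only through the day 9 groups. A difference was so built into the testing of these genes, and the counts are a description only. The 6 below the filter (Ccr4, Ccr9, Ccr10, Xcr1, Ackr1 and Ackr4) differed by -0.39 to 0.03 in log2 signal at day 9 against day 0. At day 4 against day 0, 1 of the 11 was higher, 8 lower and 2 not called, where 37.5% of all genes were higher and 22.4% lower. At day 9 + KU55933 and at day 9, 10 of 11 were lower and 1 higher. Over all genes 21.9% and 22.0% were lower there, and 37.3% and 36.0% higher. Cx3cr1, the fractalkine receptor of mature NK cells and patrolling monocytes, averaged 4.22 at day 9 and 6.86 at day 0 (-2.65 ± 0.24 SE, adjusted p = 4.42e-05 by limma). Cxcr5, the B cell follicle receptor, averaged 4.11 at day 9 and 6.56 at day 0 (-2.45), and the B cell markers given above fell in the same comparison, all 8 of those tested. Ccr3, the eotaxin receptor, averaged 2.50 at day 9 and 4.77 at day 0 (-2.27), Ccr6 3.11 and 4.79 (-1.68), and the chemerin receptor Cmklr1 3.07 and 5.05 (-1.98). The day 9 levels of Ccr3, Ccr6 and Cmklr1 lay below the array medians, so these differences may be understated. The 1 that was higher, Ccr1l1, a mouse gene next to Ccr1, averaged 4.11 at day 9 and 2.19 at day 0 (1.91, adjusted p = 3.37e-05 by limma), its day 0 level below the array median. Its day 4 call (0.45, adjusted p = 0.0457 by limma) was lost after centring. Between day 9 + KU55933 and day 9, 0 of 11 were called by limma and 2 had an unadjusted p under 0.05. Of all genes 0.986% were called there.

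**Figure D4:**
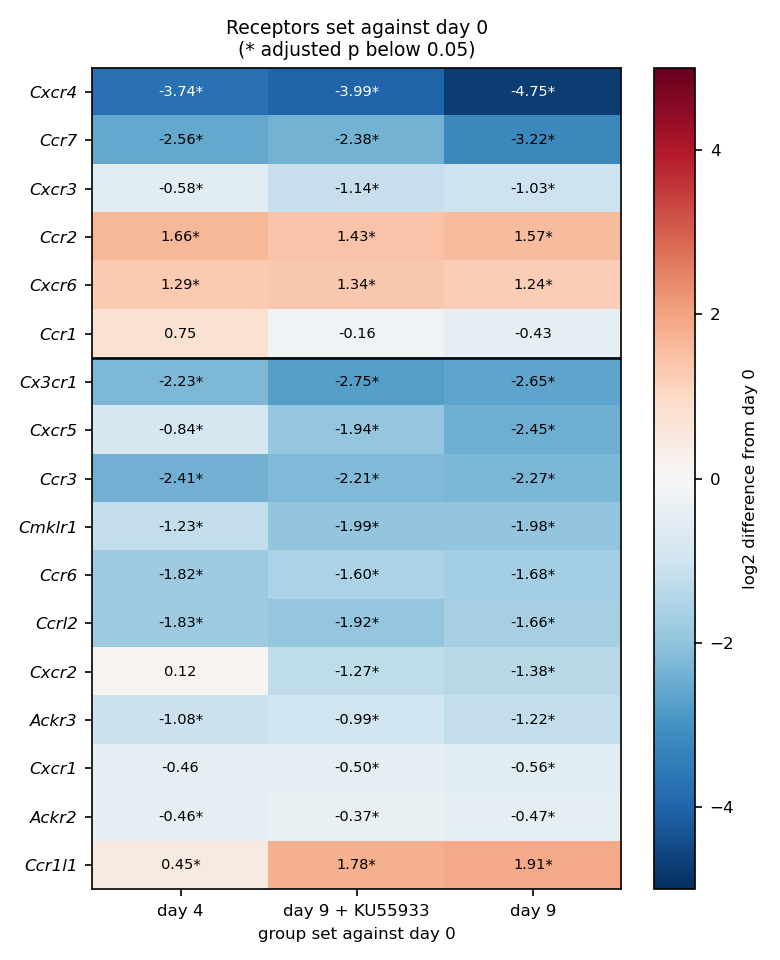
Log2 difference from day 0 (colour and printed number) of the 6 tested members, above the black line, and of 11 other tested chemokine receptors, below it, for day 4, day 9 + KU55933 and day 9 (columns); a star marks an adjusted p below 0.05. Ccr2, Cxcr6 and Ccr1l1 are the rows with starred positive values in both day 9 columns, and most other rows are negative.

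In the RefSeq order of mouse chromosome 9, Cxcr6, Ccr1 and Ccr2 lie in one cluster with Ccr9, Xcr1, Ccr1l1 and Ccr3, 7 receptors among 11 annotated genes from Ccr9 to Ccr2. These neighbours did not all differ from day 0 in the same direction. Ccr2 and Cxcr6 rose against day 0 while Ccr3, which lies next to Ccr2, fell, with 2.33 and 2.40 at day 4, against 4.26 and 5.28 at day 0. Ccr3 was tested only because its day 0 arrays reached the array median, so its fall is a description only. Ccr1l1, tested only through the day 9 groups, had 4.30 and 3.92 at day 9, against 2.15 and 2.23 at day 0. Ccr9 and Xcr1 lay below the test's filter, and Ccr8 is on the same chromosome outside the cluster.

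The chemokines that bind the 7 receptors, with close relatives such as Ccl4, were also measured, 15 of 17 listed with their own cluster and 13 tested. At day 4 against day 0, 4 rose and 5 fell (after centring 1 rose and 7 fell), where 37.5% of all genes were higher and 22.4% lower. Cxcl10, a CXCR3 ligand, averaged 5.93 at day 4 and 4.67 at day 0 (1.27 ± 0.15 SE, adjusted p = 0.000158 by limma), and the CCR2 ligand Ccl2 averaged 4.80 at day 4 and 3.89 at day 0 (0.91). Ccl5, a CCR1 ligand that NK cells store, averaged 10.45 at day 4 and 12.14 at day 0 (-1.69). At day 9 against day 0, 0 rose and 8 fell, where 36.0% of all genes were higher and 22.0% lower. Cxcl9 had the largest difference, with 4.07 at day 9 and 7.08 at day 0 (-3.01, adjusted p = 3.44e-06 by limma). Cxcl16, the ligand of CXCR6, fell to 4.65 at day 9, against 6.31 at day 0 (-1.66), while its receptor was higher. Cxcl9 and Cxcl16 are made by macrophages and dendritic cells. In the same comparison 8 of 11 monocyte and macrophage markers and 7 of 9 tested dendritic cell markers fell, and 2 of each list rose. Flt3, among the 7, was tested only because its day 0 arrays were high. The part of these markers in the ligand signals was not tested.

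With KU55933 3 of 13 ligands were lower than at day 9 without it and 0 higher, on a background of 0.236% lower. After centring 3 were again lower. Whether the ligand calls hold with an array left out was not tested. Ccl3 and Ccl9 bind CCR1. Ccl3 averaged 9.48 with KU55933 and 10.75 without (-1.27 ± 0.12 SE, adjusted p = 0.0061 by limma), Ccl4 7.34 and 8.50 (-1.16, adjusted p = 0.0103 by limma) and Ccl9 6.24 and 7.84 (-1.60, adjusted p = 0.00647 by limma). Ccl3 and Ccl4 are stored and secreted by activated NK cells. Against day 4, 10 of 13 ligands were lower with KU55933, where 13.7% of all genes were lower, and 1, Ccl5, was higher (0.35). Without KU55933, 5 of 13 were lower at day 9 than at day 4 (Cxcl9, Cxcl10, Cxcl16, Ccl3 and Ccl6), where 15.6% of all genes were lower, and Ccl5 was higher (0.86).

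Downstream of the receptors, 22 of 24 listed genes of G protein signalling and motility were tested. At day 4 against day 0, 10 rose and 6 fell (after centring 5 and 8), where 37.5% of all genes were higher and 22.4% lower. The 4 with the lowest adjusted p were Prex1, a Rac activator driven by G protein βγ (-2.01), the phospholipase Plcb2 (-1.74), the PI3K-γ adaptor Pik3r6 (1.68) and the G protein subunit Gnb1 (1.15). At day 9 against day 0, 9 rose and 7 fell, where 36.0% of all genes were higher and 22.0% lower. Among those that fell, Prex1 averaged 7.04 at day 9 and 9.47 at day 0. KU55933 against day 9 had 1 of 22 called, where 0.986% of all genes were called. That was Pik3r6, at 7.0 with KU55933 and 6.11 without (0.88, adjusted p = 0.0193 by limma). Whether its call holds with an array left out was not tested. Against day 4, 4 rose and 2 fell with KU55933, where 12.3% of all genes were higher and 13.7% lower. Without KU55933 2 rose and 2 fell, where 12.2% of all genes were higher and 15.6% lower.

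Genes listed as switching the receptors off moved in both directions. The list also holds tyrosylprotein sulfotransferase genes, which do not switch receptors off. Of 16 tested in the list, 2 rose and 7 fell at day 4 against day 0 (after centring 2 and 10). Of all genes 59.9% were called there, 37.5% higher and 22.4% lower. At day 9 + KU55933 against day 0, 3 rose and 10 fell, where 37.3% of all genes were higher and 21.9% lower. At day 9 against day 0, 3 rose and 9 fell, where 36.0% of all genes were higher and 22.0% lower. Grk3, a kinase that phosphorylates occupied receptors, averaged 3.55 at day 4 and 8.89 at day 0 (-5.34 ± 0.15 SE, adjusted p = 6.17e-07 by limma), and lay below the array median from day 4 on. It was tested only because its day 0 arrays were high, and the difference may be understated. Rgs2, which speeds the turning off of G proteins, averaged 6.55 at day 4 and 11.21 at day 0 (-4.66), and Rgs1 7.69 and 9.90 (-2.21). Rgs16 went the other way, with 9.99 at day 4 and 5.68 at day 0 (4.31). At day 9 Rgs1 averaged 9.78, against 9.90 at day 0 (-0.12, adjusted p = 0.464 by limma), whereas Rgs2 averaged 7.39 and 11.21 (-3.82). Of 18 immediate-early genes, 15 were lower and 3 higher at day 4 than at day 0, where 22.4% of all genes were lower and 37.5% higher. At day 9, 14 were lower and 2 higher than at day 0, where 22.0% of all genes were lower and 36.0% higher. For KU55933 against day 9, 1 of the 16 tested in the list was called, where 0.986% of all genes were called. That was the arrestin Arrb1, at 8.19 with KU55933 and 7.03 without (1.15, adjusted p = 0.0172 by limma). Whether its call holds with an array left out was not tested.

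Genes whose 8 array values ran most like a receptor's were sought among 5202 tested genes whose group means span at least 1. For Cxcr4 they were Sidt1 (Pearson r = 0.998 over 8 arrays), Erdr1 (0.997) and Lbh (0.997), and for Ccr7 Sidt1 (0.997), Erdr1 (0.994) and Helz2 (0.993). Cxcr4 and Ccr7 correlated with each other at 0.993. For Ccr2 they were Noc3l (0.998), Gtpbp4 (0.998) and Larp1 (0.997), and for Cxcr6 Timm8b (0.996), Dlat (0.996) and Usp42 (0.994). Cxcr3 had Ralgapa2 (0.992), Ly6d (0.988) and Taf4 (0.988), and Ccr1 had Cenps (0.915), H6pd (0.910) and Pcyox1l (0.898). The day 0 arrays stand apart from the rest, and all 8 arrays share their labelling and normalization.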

How the data were processed

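Expression was measured in 8 samples, 4 groups of 2 biological replicates by their labels. Array signals were summarized by RMA, per the submitters' processing notes; what the authors deposited is 1 log2 value for each of 41345 transcript clusters. A second deposited table holds the authors' group averages with p-values over all groups from the Transcriptome Analysis Console, for 11036 clusters. The sources used here give neither tool versions nor the genome build. Symbols came from the array's probe table: 23521 clusters name 1 symbol, 1820 several and 16004 none. Genes with several clusters (1082) took the brightest.

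The 8 arrays entered 1 limma fit of the 4 group means (version 3.58.1, R 4.3.3), with 4 residual and 3.69 prior degrees of freedom for eBayes. The 6 comparisons were two-sided and adjusted by Benjamini-Hochberg over 13998 genes. Figures used Python 3.11.15 and matplotlib 3.10.9. The code was tested on simulated data. No scan or batch information was used, and only 2 arrays per group limit the precision. No label shows if replicate numbers pair the samples across groups. Correlations of replicate differences between groups were -0.033 to 0.053, which cannot settle it with only 2 arrays per group. The members, the gene and marker lists and the tests were chosen with earlier results of these data known. Named genes were the members, any gene of the lists of other receptors, ligands and markers, the 4 called genes with the lowest adjusted p of the other lists (Rgs1, Rgs2 and the like), the 3 genes most like each receptor, and Fyco1 as the gene around Cxcr6, chosen after its place was seen. Listed genes without a cluster naming them alone were not analysed here.

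As alternatives the dim filter was dropped or set at percentile 75, clusters were tested singly or averaged per gene, arrays were centred, quantile normalized or weighted, eBayes was run with a trend or robustly, the replicate number was a block, arrays were left out or only 4 kept, 2-fold was required, and the authors' averages replaced the arrays.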

Additional observations from a re-analysis of the deposited data

How the results depend on the processing

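Of 714 alternative values for the 7 receptors, 656 kept their direction and their side of the threshold, 39 lost a call, 10 gained one and 9 changed sign. All calls of Cxcr4, Ccr7, Cxcr3, Ccr2 and Cxcr6 against day 0 held in every alternative fit. A 2-fold minimum left 4 receptors at day 4 against day 0, since Cxcr3 differed there by -0.58. In the other comparisons only the call of Cxcr4 in day 9 against day 4 held in every fit. Why other calls were lost was not tested, apart from the fits with fewer arrays or with another number of genes.

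Cxcr3 in day 9 against day 4 was not called with no filter (-0.45, adjusted p = 0.0787), centred (-0.33), quantile normalized (-0.35) or with the replicate block (-0.45, adjusted p = 0.0533), and leaving out an array gave -0.58 to -0.32. Cxcr3 in day 9 + KU55933 against day 4 ranged from -0.63 to -0.49 with an array left out. Ccr1 in day 9 against day 4 lost its call with no filter, every cluster, robust eBayes, the replicate block and only 4 arrays (each -1.18), centred (-1.06) and quantile normalized (-1.24), and ranged from -1.82 to -0.54 with an array left out. Ccr1 gained calls with only the 4 arrays compared at day 4 against day 0 (0.75) and day 9 + KU55933 against day 4 (-0.91), and with an array left out these ranged from 0.53 to 0.97 and -1.08 to -0.74. Ccr1 in day 9 against day 0 ranged from -1.07 to 0.21. Ccr7 in day 9 against day 4 ranged from -0.77 to -0.54. Ccr7 in day 9 + KU55933 against day 9 lost its call with no filter and only 4 arrays (both 0.83), centred (0.76) and quantile normalized (0.75), ranged from 0.72 to 0.95 with an array left out, and kept it with the replicate block. Cxcr4 in that comparison gained one (0.75) with the percentile 75 filter, the variance trend and array weights.

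Signs changed only in differences that were not called: Cxcr3 (0.02, range -0.24 to 0.02) and Ccr1 (-0.37, range -0.37 to 0.91) in day 9 + KU55933 against day 9, Cxcr6 in day 9 against day 4 (0.06 centred, 0.02 quantile, 0.03 without day 9 replicate 2, range -0.13 to 0.03), Ccr2 there (0.03 centred), and Ccr1 against day 0 in day 9 (0.21) and day 9 + KU55933 (0.07 quantile, 0.06 without day 0 replicate 1, range -0.38 to 0.06).

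A 2-fold minimum left 4045, 3843 and 3966 genes for day 4, day 9 and day 9 + KU55933 against day 0, 1240 for day 9 against day 4, 1162 for day 9 + KU55933 against day 4 and 56 for day 9 + KU55933 against day 9. With an array left out, the last 3 comparisons gave 2223 to 4933, 1984 to 4693 and 1 to 255 genes; the fewest, 1, came without day 9 + KU55933 replicate 1, and 255 without either day 0 array. For day 9 + KU55933 against day 9, 49 genes were called with no filter, 256 at percentile 75, 83 by quantile, 320 with the trend, 333 with weights, 60 with the replicate block and 38 with 4 arrays. Receptors called in day 9 against day 4 were 2 with no filter, centring, quantile, the replicate block and a 2-fold minimum, and 1 to 3 with an array left out. In day 9 + KU55933 against day 4 they were 2 with only 4 arrays, 0 past 2-fold and 0 to 2 with an array left out. In day 9 + KU55933 against day 9 they were 2 at percentile 75, with the trend or with weights, 0 with no filter, centring, quantile, 4 arrays or 2-fold, and 0 to 1 with an array left out. The replicate block changed no other receptor call. Ccr8 lay under the array median on all 8 arrays and Ccr1 on 3 of 8.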
